A study of Mus musculus with 2 samples.

Results

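The core circadian clock was examined in whole-kidney RNA through 10 genes, *Arntl* (which encodes BMAL1), *Clock*, *Npas2*, *Per1*, *Per2*, *Per3*, *Cry1*, *Cry2*, *Dbp* and *Tef*. They were chosen by symbol, and all 10 were found among the 19829 genes of the deposited table. The comparison asked at which levels these genes stood in the 2 sequenced kidneys, and whether genes of opposite phases of the daily rhythm differed in opposite directions.

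One library came from a wild-type kidney (WT+AKI) and 1 from a kidney of a transgenic mouse (TG+AKI) that, per the study, overexpresses *Inmt* in proximal tubules. *Inmt* encodes an N-methyltransferase that the study links to the removal of indole-3-acetic acid. Both were male C57BL/6 mice and the controls were littermates. Both had received voclosporin, a calcineurin inhibitor, at 30 mg/kg per day by intraperitoneal injection during 2 weeks (age 8 to 10 weeks). At 14 weeks both kidneys were made ischemic for 30 min and reperfused (I/R) in either genotype to induce acute kidney injury (AKI). Per the study, transgenic mice so treated kept blood urea nitrogen and creatinine comparable to those of sham controls. AKI in both group names thus stands for the procedure. The treatment label of both samples names no treatment although the series design names voclosporin, and the title given to the transgenic sample adds the words conditional knockout. The transgene is limited to proximal tubules, whereas the RNA came from all cells of the kidney. The kidneys were taken 48 h after I/R by the general methods and 24 h after it by the description of these groups. Mice lived in 12 h of light and 12 h of dark, and the hour of the day at which each kidney was taken is not given in the sources used here. With 1 kidney each, effects of genotype, of the individual mouse and of the hour of collection cannot be told apart.

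The clock is a feedback loop that runs in nearly every cell. BMAL1 pairs with CLOCK or NPAS2 and switches on genes that carry E-boxes, among them the *Per* and *Cry* genes, whose proteins then return to inhibit the pair. *Dbp* and *Tef* are output factors driven by the same pair, and they bind D-boxes in further genes. In kidney, as in other peripheral tissues of the mouse, *Arntl* and *Npas2* transcripts are known to peak when those of *Dbp*, *Nr1d1* and the *Per* genes are low, and *Cry1* is known to peak later than the *Per* genes. The rhythm of the kidney is known for timing the handling of sodium and water.

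Each value below is a normalized read count, in reads per 1000000 of a scaled library. The libraries held 38542764 reads (WT+AKI) and 36427421 reads (TG+AKI), in which 1 read was worth 0.0236 and 0.0302. Ratios are of normalized values, TG+AKI over WT+AKI, and brackets hold their 95% exact (Clopper-Pearson) intervals from the reads. The reads carry no molecular identifiers and may be PCR copies, so that the intervals cover counting error only, and with 1 library per group no difference has a replicate check or a p-value. A gene was compared when its value reached 10 in either library (424.0 and 331.2 reads), and a difference was called 2-fold when it was at least 1 in size on the log2(value + 1) scale. Log2 fold changes are on that scale, on which changes of low genes come out too small.

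The state of the 2 kidneys stands beside every clock result. *Inmt* had values of 10.4 and 402.8, higher in the transgenic kidney as labelled. All 10 tubular injury markers were called lower there, with a summed value of 13311 against 902.8, of which *Spp1* alone gave 10183 and 670.5. All 10 proximal tubule markers were higher, 9 of them called, and summed to 14069 and 40934, of which *Kap* alone gave 3958 and 17611. Of 10 macrophage and myeloid markers 9 were lower, 7 of them called, with sums of 230.7 and 91.1. The 6 thick ascending limb markers summed to 2021 and 4446, with 4 of 5 compared called higher, and *Egf* alone gave 54.3 and 1160. The 8 distal tubule and collecting duct markers summed to 479.9 and 1083, with 2 of 7 compared called higher. Of these *Slc12a3* alone gave 98.5 and 507.0, and *Aqp2* gave 153.5 and 178.3. The podocyte markers summed to 422.9 and 453.8 and the endothelial markers to 418.0 and 401.6, with none called. Over all compared genes 5.74% were called higher and 7.12% lower. No listed marker was at 0 in either library, which holds for each of the 19829 genes of the deposited table. In bulk tissue fewer cells of a type and less RNA per cell cannot be told apart, and the part of these shifts in the clock results was not tested.

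*Arntl* and *Npas2* of the activators were higher and 4 repressor genes lower in the transgenic kidney. The ratio was 2.03 for *Arntl* and 2.36 for *Npas2*, and it lay between 0.326 and 0.649 for *Per1*, *Per2*, *Cry1* and *Cry2*. *Clock* and *Per3* were near 1, *Dbp* was somewhat lower and *Tef* somewhat higher. Summed by role, the activators *Arntl*, *Clock* and *Npas2* had 96.8 and 116.1, the *Per* genes 147.9 and 85.7, the *Cry* genes 31.2 and 17.6, and *Dbp* with *Tef* 210.5 and 250.6. The sums of the activators and of *Dbp* with *Tef* are carried mostly by *Clock* and by *Tef*.

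**Figure D1:**
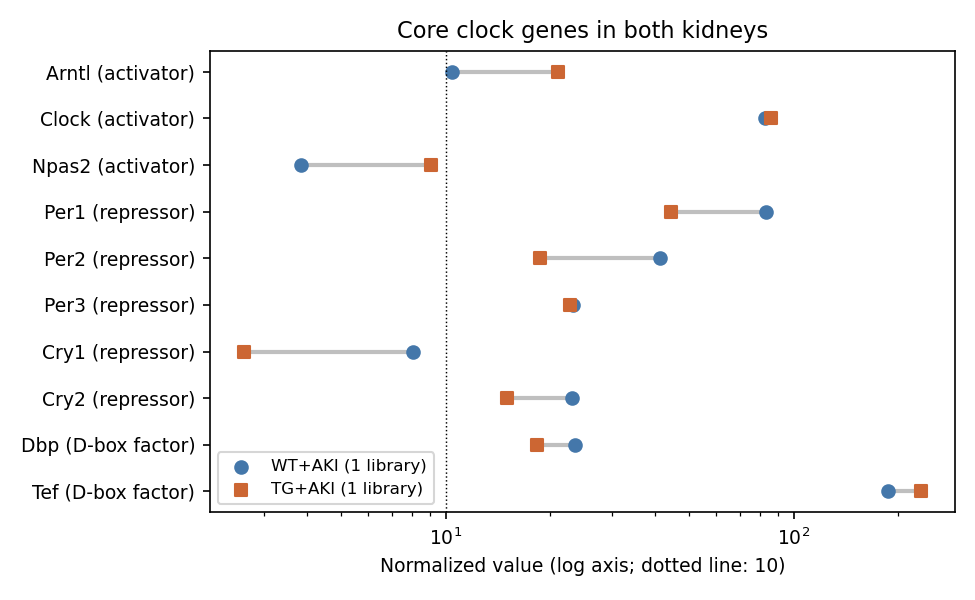
Normalized values (log axis) of the 10 core clock genes, with a circle for the WT+AKI library and a square for the TG+AKI library. *Arntl* and *Npas2* lie further right in TG+AKI, *Per1*, *Per2*, *Cry1* and *Cry2* lie further left, and *Clock* and *Per3* nearly coincide. The dotted line marks the value of 10 that neither *Npas2* nor *Cry1* reached.

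Stretches ahead of annotated starts are shown for the clock genes below because E-boxes and D-boxes are the elements through which the loop drives its own repressors and output factors. RefSeq promoter windows (GRCm38.p6, 250 bases before to 50 after a start) were searched on both strands for the E-box CACGTG, the related form CACGTT and the D-box TTATGTAA. Windows were at hand for 9 of the 10 core clock genes, all but *Per2*. Capitals mark the matches (AACGTG is CACGTT read on the other strand), and each stretch runs 5′ to 3′ on the strand of its gene. *Ciart*, a repressor outside the core list, is included for its 3 E-boxes and was thus picked for its matches. Of the other clock genes with a window, only *Bhlhe41* and *Sirt1* also held an E-box. The starts shown for *Per1* and *Tef* lie inside the annotated gene.
*Per1*, chr11:69098763-69098808, plus strand: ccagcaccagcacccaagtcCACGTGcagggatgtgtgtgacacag
*Cry1*, chr10:85185089-85185153, minus strand: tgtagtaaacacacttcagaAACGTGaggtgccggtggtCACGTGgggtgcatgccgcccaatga
*Cry2*, chr2:92434210-92434255, minus strand: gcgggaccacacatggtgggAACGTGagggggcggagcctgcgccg
*Tef*, chr15:81811256-81811301, plus strand: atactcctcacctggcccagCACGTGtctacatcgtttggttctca
*Ciart*, chr3:95882247-95882364, minus strand: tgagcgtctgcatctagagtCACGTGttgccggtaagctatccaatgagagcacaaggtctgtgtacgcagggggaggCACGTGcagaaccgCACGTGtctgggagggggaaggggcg
*Per3*, chr4:151044796-151044890, minus strand: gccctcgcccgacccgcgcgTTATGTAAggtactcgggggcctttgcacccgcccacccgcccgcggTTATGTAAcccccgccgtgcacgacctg

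The E-box was present in 7.15% of all 32851 promoter windows, the CACGTT form in 4.68% and the D-box in 0.938%. Counted by gene, since some genes have several windows, these shares were 8.09%, 5.44% and 1.11% of 27025 genes. Among the core clock genes *Per1*, *Cry1* and *Tef* held an E-box, *Cry1* and *Cry2* the CACGTT form, and *Per3* held 2 D-boxes. The windows of *Arntl*, *Clock*, *Npas2* and *Dbp* held none of these letters. One window of *Arntl* held TAGGTCA, a sequence bound by ROR and REV-ERB receptors, which 2.61% of all windows hold. These matches are descriptions of the letters in 300 bases, and binding was not measured.

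*Arntl* (gene ID 11865, chr7:113207465-113314126 on the plus strand, GRCm38) encodes the indispensable activator of the loop. It stood at 10.4 in the wild-type kidney (441 reads) and at 21.1 in the transgenic one (699 reads). The transgenic kidney was the higher one, with a ratio of 2.03 [1.80 to 2.29] and a log2 fold change of 0.96, just short of the call. Of all compared genes, 93.7% had a lower log2 fold change.

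*Npas2* (gene ID 18143, chr1:39193731-39363236, plus strand) encodes a relative of CLOCK that can take its place beside BMAL1. Its values were 3.84 and 9.09, from 163 and 301 reads. The ratio of 2.36 [1.95 to 2.88] was the highest of the 10 genes, but both values were under 10 and *Npas2* was not among the compared genes. *Clock* (gene ID 12753, chr5:76209868-76304792, minus strand) encodes the usual partner of BMAL1 and stood at 82.6 and 85.9, from 3502 and 2846 reads. *Clock* did not differ beyond counting error (ratio 1.04 [0.990 to 1.09]), and its ratio was 0.860 with libraries scaled to equal totals and 0.941 with the median ratio of well-expressed genes set to 1.

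*Per1* (gene ID 18626, chr11:69095217-69109960, plus strand) encodes a repressor of the loop and is also switched on directly by glucocorticoids and cyclic AMP. Its values were 83.5 and 44.3, from 3538 and 1467 reads. The wild-type kidney held the higher level, by 1.88-fold [1.77 to 2.003], with a log2 fold change of -0.90. *Per2* (gene ID 18627, chr1:91415982-91459324, minus strand) encodes a repressor that acts beside PER1. It was listed at 41.3 and 18.6, from 1749 and 617 reads, which made it 2.21-fold lower in TG+AKI [2.02 to 2.43] with a log2 fold change of -1.11.

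*Per3* (gene ID 18628, chr4:151003652-151044665, minus strand) encodes the family member that the loop can do without. Its values of 23.2 and 22.8, from 985 and 754 reads, did not differ beyond counting error (ratio 0.980 [0.890 to 1.08]). The *Per* genes were thus not uniform, since the intervals of *Per1* and *Per2* lay below that of *Per3*, an ordering that no scaling of the libraries can move.

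*Cry1* (gene ID 12952, chr10:85131700-85185064, minus strand) encodes a potent repressor of BMAL1 and CLOCK. It was listed at 8.07 (342 reads) in the wild-type and 2.63 (87 reads) in the transgenic kidney. This was the widest gap among the 10 genes, 3.07-fold lower in TG+AKI [2.42 to 3.93]. Like *Npas2* it stayed under 10 in both kidneys and was not compared. *Cry2* (gene ID 12953, chr2:92403646-92434043, minus strand), the other cryptochrome, had values of 23.1 and 15.0, from 980 and 497 reads. It too was lower in TG+AKI, by 1.54-fold [1.38 to 1.72], with a log2 fold change of -0.59.

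*Dbp* (gene ID 13170, chr7:45705088-45710203, plus strand) encodes a D-box activator and is one of the most strongly rhythmic transcripts of peripheral tissues. Its values were 23.5 and 18.3, from 996 and 605 reads. The transgenic kidney was 1.29-fold lower [1.16 to 1.42], a log2 fold change of -0.35. Exons of *Sphk2* on the opposite strand cover 18.0% of the *Dbp* exon bases. Whether strand was used in counting is not given in the sources used here, so *Dbp* may hold reads of *Sphk2*, which was higher in TG+AKI (33.0 and 50.8).

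*Tef* (gene ID 21685, chr15:81802421-81826863, plus strand) encodes a D-box activator of the same family and was the most abundant member. It had values of 187.0 and 232.3, from 7930 and 7693 reads. *Tef* lay on the opposite side to *Dbp*, with a ratio of 1.24 [1.20 to 1.28], which was 1.03 with equal totals. With *Per1* and *Cry1* lower and *Tef* higher, the members with an E-box in their windows were found on both sides.

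**Figure D2:**
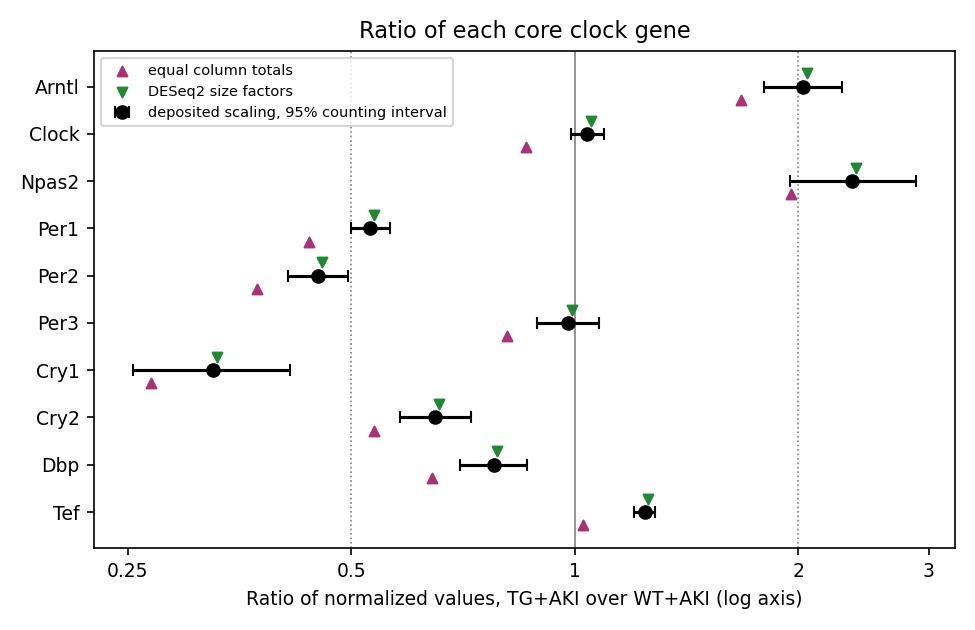
Ratio of normalized values, TG+AKI over WT+AKI (log axis), for the 10 core clock genes. Black points with bars give the deposited scaling with 95% counting intervals, triangles give 2 other scalings, and dotted lines mark 0.5 and 2. Scaling to equal totals moves every point left by the same factor and takes *Clock* from 1.04 to 0.860, whereas *Arntl*, *Npas2* and *Tef* stay above 1 and *Per1*, *Per2*, *Per3*, *Cry1*, *Cry2* and *Dbp* below 1 under the scalings drawn.

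Of the 8 core clock genes that were compared, *Per2* was called lower and none was called higher. Over all 10294 compared genes 7.12% were called lower and 5.74% higher, so a single call among 8 genes is no more than about the background. The median log2 fold change of the 8 was -0.19, beside 0.01 for all compared genes. The counting interval lay above 1 for 2 of the 8 (41.8% of all compared genes) and below 1 for 4 (39.5%), and it left out 1 for 81.3% of all compared genes. With plain ratios and a filter of 1, chosen after the data were seen, *Npas2* and *Cry1* entered and 4 of the 10 genes reached 2-fold, *Arntl* and *Npas2* higher and *Per2* and *Cry1* lower. By that rule 7.35% of 14997 genes were higher and 11.0% lower, 18.3% in all. The interval left out 1 for 8 of the 10 genes, and for 75.0% of these 14997.

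Scaling to equal totals lowered the median of all compared genes from 0.01 to -0.25 on the log2 scale, and the share of all calls that were higher from 44.6% to 24.9%. With the median ratio of well-expressed genes set to 1 the median was -0.13 and that share 33.9%. *Arntl* kept a ratio of 1.68 and 1.84 under these scalings.

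**Figure D3:**
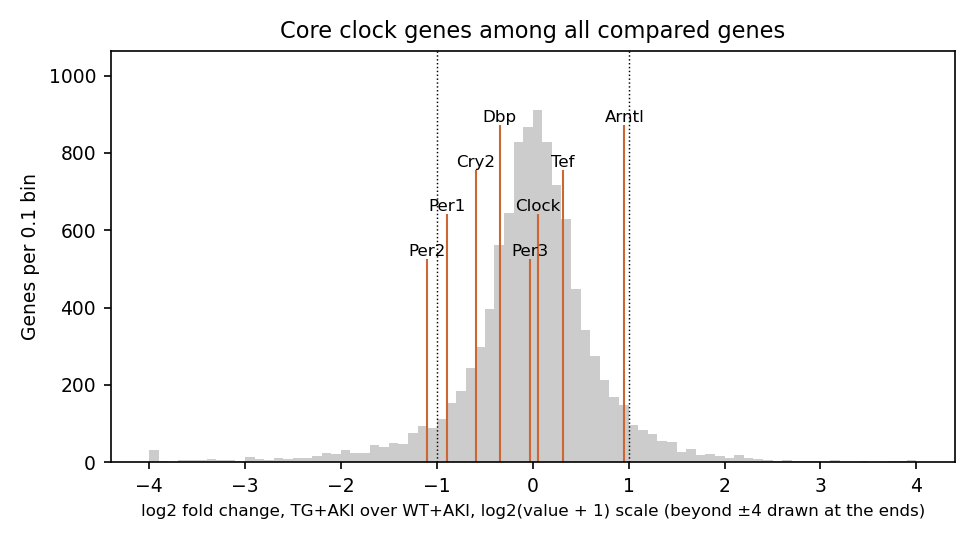
Histogram of the log2 fold change on the log2(value + 1) scale for the 10294 compared genes in bins of 0.1, with lines at the 8 core clock genes among them (line heights carry no value). Dotted lines mark the 2-fold limits. *Per2* lies beyond the lower limit, *Arntl* just inside the upper one, and *Per3* and *Clock* near the centre.

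Levels were compared between genes per kilobase of merged exons (GENCODE M21), since longer transcripts yield more reads. The intervals do not cover this choice of length. Merged exons join all annotated transcripts and can far exceed the longest one, as for *Clock* (13727 and 9744 bases) and *Dbp* (2993 and 1837). The order of neighbouring genes, such as *Per2* and *Clock* in WT+AKI, can thus differ with the length used. In WT+AKI *Tef* led with 23.8 per kilobase, ahead of *Per1* with 14.8. *Dbp* (7.85) stood above *Per2* (7.04) by a ratio of 1.11 [1.03 to 1.21], and *Clock* (6.02) and *Cry2* (3.66) came next. *Per3* and *Cry1*, both at 2.42, could not be ranked beyond counting error, and *Arntl* (1.38) and *Npas2* (0.802) were lowest. The activators other than *Clock* thus closed the order in the wild-type kidney.

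In TG+AKI *Tef* (29.5) and *Per1* (7.87) again led per kilobase of merged exons. The place of *Per1* ahead of *Dbp* depends on that length. *Clock* (6.26) and *Dbp* (6.10) could not be ranked beyond counting error, nor could *Cry2* and *Per3*, both at 2.37. *Per2* (3.18) stood above *Arntl* (2.81) by a ratio of 1.13 [1.02 to 1.27]. *Npas2* (1.90) and *Cry1* (0.787) came last. By merged exons *Arntl* was thus below *Per2* in both kidneys, with the wider gap in the wild-type one. *Cry1* stood above *Npas2* in the wild-type kidney and below it in the transgenic one. Merged exons come to 7523 bases for *Arntl* and 5856 for *Per2*, whereas their longest transcripts have 3995 and 5833. Whether *Arntl* stood below *Per2* in TG+AKI thus depends on the length used. The spread of these levels from mouse to mouse could not be measured.

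A ratio of 2 genes within 1 library does not depend on scaling, so each member was also set against *Arntl*. The wild-type kidney held 8.02 *Per1* reads for each *Arntl* read and the transgenic kidney 2.10, a 3.82-fold lower share [3.34 to 4.38]. For *Per2* there were 3.97 and 0.883 reads, 4.49-fold lower [3.85 to 5.24]. For *Cry1* there were 0.776 and 0.124, the widest shift of the 9 genes at 6.22-fold [4.76 to 8.21]. *Dbp* reads outnumbered those of *Arntl* in the wild-type kidney (2.26) and were fewer in the transgenic one (0.866), 2.61-fold lower [2.23 to 3.06]. Such read shares are not corrected for gene length. Per kilobase of merged exons *Dbp* stood above *Arntl* in both kidneys (7.85 and 1.38 in WT+AKI, 6.10 and 2.81 in TG+AKI).

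*Cry2* (3.12-fold), *Per3* (2.07-fold), *Clock* (1.95-fold) and *Tef* (1.63-fold) were lower relative to *Arntl* as well. *Npas2* was the exception, with 0.370 and 0.431 reads per *Arntl* read, a change of 1.16 [0.925 to 1.47]. Since every share has *Arntl* below the line, these shares move together with *Arntl* itself. With *Clock* in its place *Dbp* changed to 0.747 of its wild-type share [0.667 to 0.838], *Per2* to 0.434 and *Cry1* to 0.313, whereas *Tef* (1.19) lay above 1 and *Per3* (0.942 [0.845 to 1.05]) did not differ beyond counting error.

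**Figure D4:**
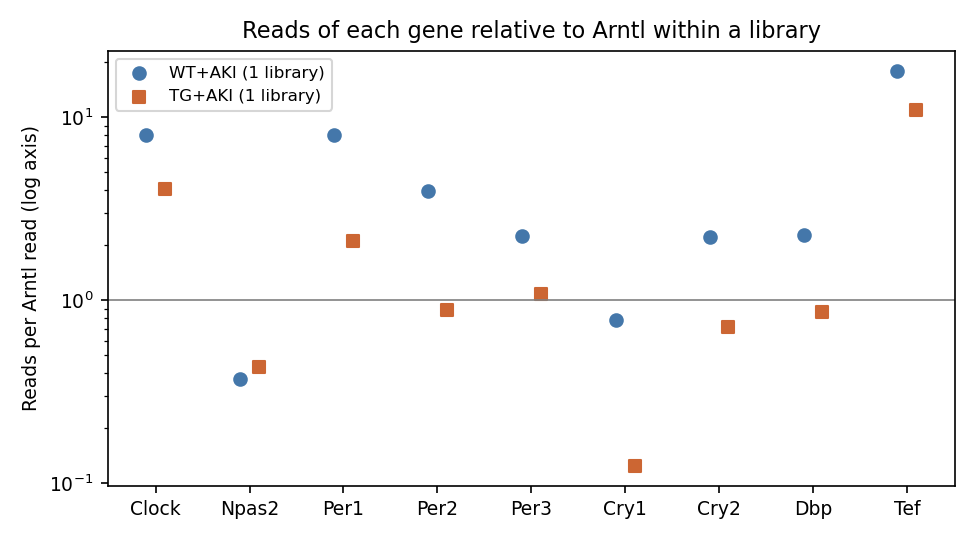
Reads of each of 9 core clock genes for each *Arntl* read in the same library (log axis), with circles for WT+AKI and squares for TG+AKI. The square lies below the circle for every gene but *Npas2*, and the widest gap is that of *Cry1*, from 0.776 to 0.124.

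Other genes of the clock were then compared by role. All 36 listed genes had a row and 28 were compared, of which 1 was called lower and none higher (7.12% and 5.74% of all compared genes), with a median log2 fold change of 0.05. The counting interval lay above 1 for 13 of the 28 and below 1 for 9, beside 41.8% and 39.5% of all compared genes. Of the 36 genes, 26 stayed on 1 side of a ratio of 1 under 4 scalings and 10 did not.

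The nuclear receptors form an accessory loop in which REV-ERB proteins repress and ROR proteins activate *Arntl*. *Nr1d1* (REV-ERBα), known to cycle with *Dbp*, had values of 65.7 and 80.7, a ratio of 1.23 [1.16 to 1.30] that was 1.02 with equal totals. *Nr1d2* (REV-ERBβ) stood at 112.8 and 110.0, with a ratio of 0.975 [0.934 to 1.02]. *Nr1d1* was thus somewhat higher in TG+AKI, on the same side as *Arntl* and on the opposite side to *Dbp*, *Per1* and *Per2*. *Nr1d2* did not differ beyond counting error. *Rora* was listed at 64.7 and 64.0, and its side of 1 changed with the scaling. *Rorb* was under 1 in both kidneys.

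The E-box repressors outside the *Per* and *Cry* families had ratios well under 1. *Bhlhe40* (DEC1) had 133.8 and 58.0, 2.31-fold lower in TG+AKI [2.19 to 2.43], and was the called gene among the 28. *Bhlhe41* (DEC2) had 7.29 and 3.74, a ratio of 0.514 [0.414 to 0.635]. *Ciart* (CHRONO), whose 3 E-boxes are shown above, had 5.12 and 2.26, a ratio of 0.442 [0.336 to 0.578]. All 3 were lower under each scaling, but *Bhlhe41* and *Ciart* had values under 10 and were not compared.

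Of the other D-box factors, the activator *Hlf* had values of 57.9 and 116.5, with a ratio of 2.01 [1.91 to 2.12] with a log2 fold change of 0.996, just under the call. The 3 activators of this family therefore differed from each other, with ratios of 0.778 for *Dbp*, 1.24 for *Tef* and 2.01 for *Hlf*. Per *Arntl* read, *Hlf* was at 5.57 and 5.52. The D-box repressor *Nfil3* was listed at 8.02 and 7.31 and did not differ beyond counting error.

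Kinases and phosphatases set the pace of the clock through PER and CRY proteins. *Csnk1e* differed most of 8 such genes, at 33.5 and 16.4 (ratio 0.490 [0.443 to 0.541]), and its relative *Csnk1d*, with the same role, was at 107.9 and 87.4 (ratio 0.810 [0.773 to 0.849]). The catalytic subunits of the energy sensor AMPK diverged, with *Prkaa2* at 178.5 and 267.7 (ratio 1.50 [1.45 to 1.55]) and *Prkaa1* at 51.1 and 39.1 (ratio 0.764 [0.713 to 0.819]). The phosphatase subunit *Ppp2cb* had a ratio of 0.629. *Csnk2a1* shares 49.6% of the 100-base words of its longest transcript with another annotated gene, so its ratio of 1.18 is uncertain.

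Of 6 genes for the turnover of clock proteins, *Btrc* (1.41), *Fbxw11* (1.41) and *Usp2* (1.30) had ratios whose intervals lay above 1. The same held for 41.8% of all compared genes, and with equal totals these ratios were 1.16, 1.17 and 1.07. *Btrc* and *Fbxw11* encode the ligase subunits that recognise phosphorylated PER proteins. Among 12 partners the ratios ran from 0.441 for *Arntl2*, a relative of *Arntl* with 145 and 50 reads, to 1.31 for *Ncor1*, a corepressor used by REV-ERB. *Timeless* had a ratio of 0.469, on the opposite side to *Nono* (1.14) and *Sfpq* (1.10), which bind PER proteins and were below 1 with equal totals. *Timeless* (9.20 and 4.32) and *Arntl2* (3.42 and 1.51) had values under 10 in both kidneys and were not compared.

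**Figure D5:**
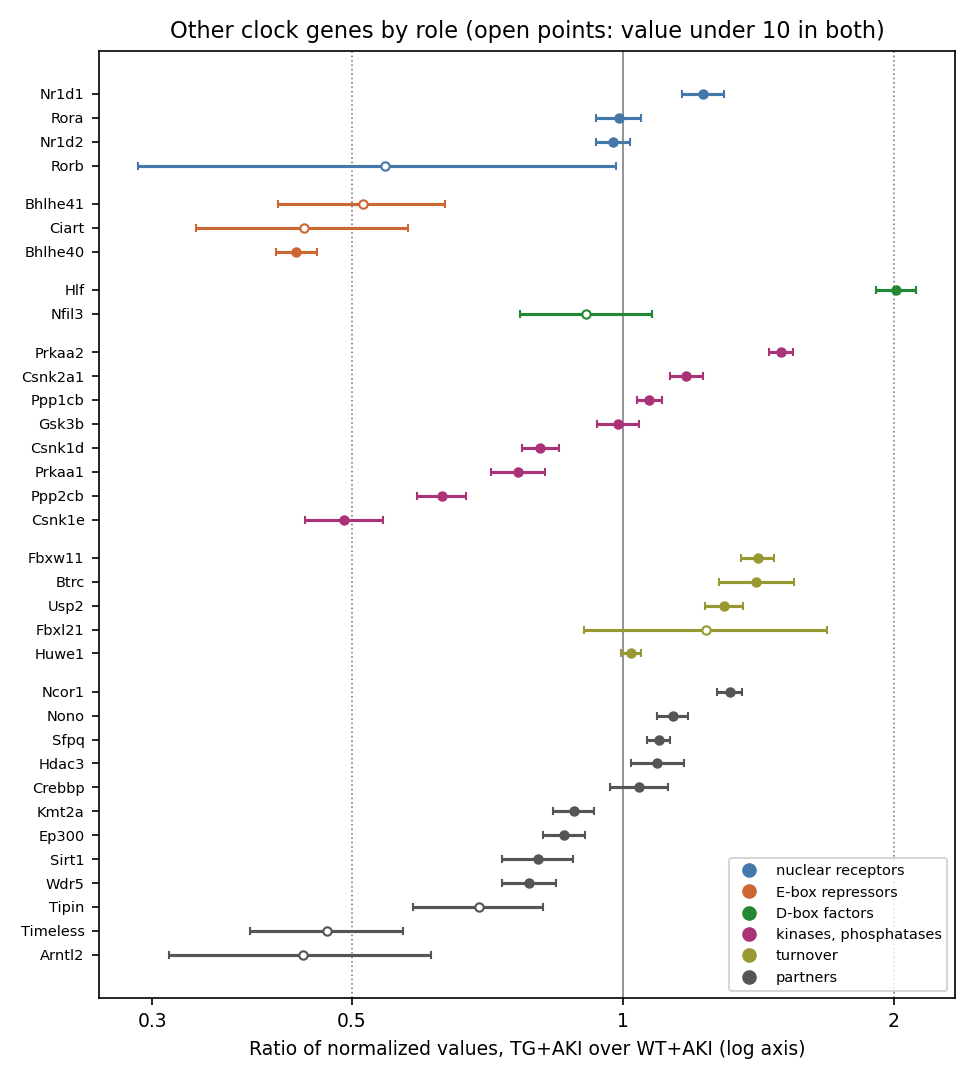
Ratio of normalized values, TG+AKI over WT+AKI (log axis), for 34 of the 36 other clock genes, grouped by role, with 95% counting intervals. Open points had a value under 10 in both kidneys. *Hlf* lies at the 2-fold line, the 3 E-box repressors lie near or beyond the 0.5 line, and *Nr1d2* and *Rora* lie near 1.

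Genes known as outputs of the clock, several of them in kidney, were listed as a further group. All 18 were compared, 7 were called lower and none higher, and the median log2 fold change was -0.32, beside 7.12% lower, 5.74% higher and a median of 0.01 over all compared genes. The widest differences were those of the cell cycle inhibitor *Cdkn1a* (581.1 and 31.2, log2 fold change -4.18), the fuel switch kinase *Pdk4* (221.1 and 21.5, -3.30) and *Edn1*, which encodes endothelin-1 (11.9 and 2.02, -2.09). *Cdkn1a* and *Edn1* are also known to respond to injury, and the injury markers given above were lower in the same kidney, whose part in this was not tested. In the whole list 11 genes had a ratio below 1 and 7 above 1, up to 2.11, beside 5020 of all 10294 compared genes below 1. The kinase gene *Sgk1*, a regulator of sodium channels, was listed at 186.5 and 191.7 and the water channel gene *Aqp2* at 153.5 and 178.3. Both are named because they are on another list, and they do not stand for the other sodium and water genes here.

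*Per1* also answers to glucocorticoids, so 11 genes known for that response were listed, *Per1* among them. Without *Per1*, which prompted the list, 10 genes were compared, 4 were called lower and none higher (7.12% and 5.74% of all compared genes), and the median log2 fold change was -0.68. With *Per1* the median is the value of *Per1* itself, -0.90. The metallothioneins *Mt2* (344.6 and 22.6) and *Mt1* (378.9 and 42.4) and the transcription factor *Zbtb16* (62.0 and 16.5) differed most. Metallothioneins are known to respond to metals and inflammation as well. *Sgk1*, which is on this list too, did not differ beyond counting error.

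Temperature is another known input of peripheral clocks. Of 10 cold-inducible and heat shock genes, all compared, 1 was called lower and none higher, near the 7.12% and 5.74% of all compared genes, and the median log2 fold change was -0.46. The small heat shock protein gene *Hspb1* (35.9 and 4.74, log2 fold change -2.69) lay apart from *Hsph1* (76.7 and 148.1, 0.94) and *Hspa8* (1515 and 2658, 0.81), which encode chaperones of the HSP110 and HSP70 families. The list thus held members on both sides, with 6 ratios below 1 and 4 above it, beside 5020 of all 10294 compared genes below 1.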

How the data were processed

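Messenger RNA of 2 mouse kidneys was analysed, 1 library per group, with groups taken from the library titles. Libraries were made with a TruSeq stranded kit and the submitters' processing notes name mm10, STAR 2.7.3a, HTSeq, DESeq2, edgeR and Cufflinks 2.2.1. The study's methods describe gene counts from HTSeq and normalization with DESeq2. The deposited values are a normalized signal per gene that the authors made from read counts. Division by the smallest value of a column gave whole reads (100% of values within 0.05 reads), and the column scaling equalled that of edgeR's TMM, which is why the values are read as reads per 1000000 of a TMM-scaled library. No listed gene is without a read in either library. Genes that the table does not list are not analysed here. Values of 2 of the other clock genes are not reported here.

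Values, ratios, intervals and 2-fold calls were computed over all genes. All core clock genes were named, any member of the other clock lists could be, and of the output, glucocorticoid and temperature lists the 3 with the largest differences and those shared with another list. The members and lists were chosen with earlier results of these data known. Ratios within a library carry exact conditional intervals of the odds ratio. Positions, exon lengths and overlaps came from GENCODE M21 (GRCm38, the assembly of mm10), promoters from RefSeq. The 2-fold calls and the intervals of the ratios were tested on simulated reads that carried counting error only, and the other procedures were not. Alternatives were pseudocounts of 0.1 and 10, 3 other scalings, no filter, a filter of 50, *Clock* as the reference gene and, chosen after seeing the data, plain ratios with filters of 10 and 1. R 4.3.3 with edgeR 4.0.16 and DESeq2 1.42.0, and Python 3.11.15 with numpy 2.4.6, pandas 2.3.3, scipy 1.17.1 and matplotlib 3.10.9, were used.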

Additional observations from a re-analysis of the deposited data

How the results depend on the processing

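With 1 library per group, mouse-to-mouse variation could not be measured, and depth limits *Cry1*, with 87 reads in TG+AKI, and *Npas2* most. No paired analysis was possible because each group has 1 library and no result comes from a test.

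Counts of calls among the core clock genes rest on 1 or 2 genes near a limit. Called higher were 0, and 1 with a pseudocount of 0.1, without a filter or with plain ratios, and 2 with plain ratios and a filter of 1. Called lower was 1, and 2 with equal totals, with a median ratio of 1, without a filter or with plain ratios and a filter of 1, and 0 with a pseudocount of 10 or a filter of 50. Of the other clock genes 0 were called higher, and 1 with a pseudocount of 0.1, with DESeq2 size factors or with plain ratios at either filter. Called lower was 1, and 2 with a pseudocount of 0.1, equal totals, a median ratio of 1 or plain ratios, and 5 with plain ratios and a filter of 1. Of all genes 591 were called higher and 733 lower. These were 372 and 408 with a pseudocount of 10, 369 and 1110 with equal totals, 374 and 295 with a filter of 50, and 1103 and 1645 with plain ratios and a filter of 1, and 1150 were lower without a filter.

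The median of the core clock genes (-0.19) was -0.45 with equal totals, -0.33 with a median ratio of 1 and 0.056 over the 3 genes left by a filter of 50. The median of the other clock genes (0.05) was -0.22, -0.096, and -0.016 without a filter and -0.015 with plain ratios and a filter of 1. *Clock* changed sides, to -0.22 with equal totals and -0.086 with a median ratio of 1. These shifts follow from 1 factor on all genes or from which genes enter. Set against *Clock* in place of *Arntl*, *Dbp* was at 0.747 in place of 0.383 and *Tef* at 1.19 in place of 0.612, because *Arntl* itself differed from *Clock* by 1.95. No other core clock gene changed sides of 1 under any scaling or pseudocount tried.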
